A study of Rattus norvegicus with 18 samples.

Results

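The NR4A subfamily of nuclear receptors was followed through a time course of thyroid-stimulating hormone (TSH) in rat thyroid cells. The subfamily has 3 genes, Nr4a1, Nr4a2 and Nr4a3, and all were on the array. The family was picked with earlier results of these data known, and its probe sets were then taken by annotation: every probe set that the array's annotation assigns to 1 of these symbols was included, which gave 7 of the 8740 probe sets tested, and 3 of the 4736 genes. Nr4a1 had 2 probe sets, Nr4a2 had 2 and Nr4a3 had 3, and 0 of them carried several symbols.

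Expression was measured with 1-colour Affymetrix arrays in 2 established lines, FRTL5, described in the labels as differentiated rat thyrocytes, and FRT/TSHR, described as de-differentiated and named for the TSH receptor. Each line had a basal group with no hormone, a group at 30 min and a group at 17 h of bovine TSH, with 3 arrays per group and 18 in all. FRTL5 cells had been kept in the TSH-free medium 5H for 5 days and received TSH at 0.1 U/L, whereas FRT/TSHR cells were grown in Coon's modified F12 and received 1 U/L. Both lines were without serum for 12 h before the hormone. Line, medium and dose therefore differ together and cannot be told apart, and neither time has an untreated group of its own, so time in culture and TSH cannot be told apart either. In each line the 30 min and the 17 h groups were compared with the same basal arrays. Values are deposited log2 values, and errors of group levels are SD over 3 arrays. The arrays measure RNA of whole cultures, in which fewer expressing cells and less RNA per cell cannot be told apart.

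NR4A proteins are nuclear receptors without an established physiological ligand. Their ligand pocket is filled by bulky side chains, and their activity is thought to be set largely by how much protein is made. They bind DNA as monomers at the NBRE element, and Nr4a1 and Nr4a2 also pair with retinoid X receptors. All 3 are immediate early genes, transcribed within minutes of a signal without new protein synthesis, and cAMP acting through the factor CREB is a classical inducer of Nr4a1. In thyrocytes TSH acts on a receptor that couples to adenylyl cyclase and raises cAMP.

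The labelled cell identity was checked against thyrocyte markers, 7 of which were measured. At basal 5 of the 7 were lower in FRT/TSHR than in FRTL5 (limma, adjusted p under 0.05, against 28.5% of all genes called in this comparison). Thyroglobulin (Tg), the precursor protein of thyroid hormone, was at 11.21 ± 0.70 in FRTL5 and 4.17 ± 0.19 in FRT/TSHR (log2). The TSH receptor gene Tshr had 4 probe sets that disagreed. On D38036_at its levels in FRTL5 and FRT/TSHR were 6.56 and 6.60 (limma, adjusted p = 0.912), while it was lower in FRT/TSHR on the other 3, at 7.72 and 3.76 on M34842_at (adjusted p = 1.06e-07), 5.94 and 3.78 on rc_AI060085_s_at (adjusted p = 6.42e-09) and 4.14 and 3.33 on D38036_g_at (adjusted p = 0.01). Of the C cell, fibroblast, endothelial and leukocyte markers, 0 of 4, 1 of 7, 0 of 3 and 1 of 3 differed between the lines. The 3 FRTL5 arrays numbered 1 stood apart on the beta-actin control probe sets, where the 3' end exceeded the 5' end by 1.13 to 1.22 (log2), and on the other 15 arrays by -0.14 to 0.28. For the Nr4a probe sets, calls or folds that change by over 1.5 times without these arrays are given both ways. Levels and differences of other genes are given only with these arrays included.

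The upstream sequences of Nr4a1 and Nr4a2 are shown because cAMP acts on promoters through the cAMP response element (CRE), whose core letters are TGACG, or CGTCA on the other strand. The RefSeq promoter table (GRCr8) held an entry for these 2 genes. Each window is the 250 bases before the start of 1 annotated transcript, on the gene's own strand, at chr7:134259888-134260137 on the plus strand for Nr4a1 and at chr3:62104888-62105137 on the minus strand for Nr4a2. Both windows lie inside the annotated span of their gene, so other transcripts of each gene begin further upstream. Capitals mark the CRE cores:
Nr4a1: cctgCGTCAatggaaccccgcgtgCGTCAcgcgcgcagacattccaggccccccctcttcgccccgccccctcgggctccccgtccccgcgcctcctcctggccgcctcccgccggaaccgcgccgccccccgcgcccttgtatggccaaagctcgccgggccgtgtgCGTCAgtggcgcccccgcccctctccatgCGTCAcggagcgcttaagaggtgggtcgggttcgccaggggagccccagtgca
Nr4a2: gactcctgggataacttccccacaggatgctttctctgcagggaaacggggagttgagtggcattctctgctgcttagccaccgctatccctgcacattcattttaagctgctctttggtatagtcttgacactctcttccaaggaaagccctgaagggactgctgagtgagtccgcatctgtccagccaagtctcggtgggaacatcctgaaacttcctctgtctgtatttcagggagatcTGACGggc

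The Nr4a1 window held 4 cores, all as CGTCA, which begin 246, 226, 82 and 53 bases before the start. The Nr4a2 window held 1, as TGACG, beginning 8 bases before it. Over all 33469 promoters of the table, windows of the same length held at least 1 core in 18.2% of cases and 4 or more in 0.173%. The Nr4a1 window is also rich in G and C, at 74.8%, against 52% for Nr4a2 and a median of 51.2% over all promoters. The core itself holds the letters CG, and its share among promoters of like G and C content was not measured. Neither window held the full CRE TGACGTCA, the NBRE AAAGGTCA or the letters TATAAA, searched on both strands and with a full CRE holding a core on each strand. These letters occur in 1.59%, 1.24% and 12.9% of all promoters. These are matches of letters and not measured binding sites.

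Nr4a1, also known as Nur77 or NGFI-B, is an activator of transcription studied in steroid-producing glands and lymphocytes. Its RNA rose steeply within 30 min of TSH in FRTL5 and fell again by 17 h. On the probe set U17254_at the basal FRTL5 arrays read 6.03, 5.64 and 5.18 (log2), the 30 min arrays 7.59, 9.32 and 9.61, and the 17 h arrays 6.02, 5.94 and 6.01. All 30 min arrays lay above all basal and all 17 h arrays, and the basal and 17 h arrays overlapped. The change was 3.22 ± 0.36 (log2 difference ± SE), or 9.34-fold with a 95% interval of 5.52 to 15.8 (limma, adjusted p = 0.000405). It was 14.4-fold without FRTL5 30 min replicate 1 and 16.6-fold without the 3 FRTL5 arrays numbered 1.

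The second Nr4a1 probe set, U17254_g_at, was designed on the same sequence record and is not independent of the first. It read 6.35, 6.0 and 5.47 at basal, 8.35, 9.73 and 9.96 at 30 min, and 6.52, 6.22 and 5.92 at 17 h. The 30 min arrays were again above all others, with a change of 3.41 ± 0.33 or 10.6-fold (limma, adjusted p = 8.86e-05), and 17.2-fold without the 3 FRTL5 arrays numbered 1. The lowest 30 min value of both probe sets was on the array numbered 1, where the rise over the basal array of the same number was 1.56 on U17254_at, against 3.68 and 4.42 for the arrays numbered 2 and 3. That array is among the 3 whose beta-actin signal stood apart, and the part of this in the smaller rise was not tested.

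In FRT/TSHR neither Nr4a1 probe set passed at 30 min or 17 h. U17254_at read 5.06, 5.13 and 5.16 at basal, 5.29, 5.30 and 4.84 at 30 min, and 5.24, 5.19 and 5.16 at 17 h, with the lowest of all 9 values at 30 min. U17254_g_at lay between 4.97 and 5.56 on all 9 arrays. At 30 min the differences from basal were 0.03 ± 0.36 and 0.12 ± 0.33 (limma, adjusted p = 1.00 for each). The intervals of the fold were 0.604 to 1.73 and 0.671 to 1.76, which lie below the intervals of the rise in FRTL5.

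Nr4a2, also known as Nurr1, is required for the midbrain dopamine neurons and is induced by cAMP in many cells. It rose at 30 min in FRTL5 on 1 of its 2 probe sets. L08595_at read 3.90, 3.72 and 3.84 at basal, 5.40, 4.91 and 4.80 at 30 min, and 4.23, 4.02 and 3.74 at 17 h. The 30 min arrays lay above all others without overlap, here with the array numbered 1 as the highest. The change was 1.21 ± 0.18, or 2.32-fold with a 95% interval of 1.78 to 3.03 (limma, adjusted p = 0.00436). L08595_at was among the 25% of probe sets with the lowest mean over all arrays.

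The other Nr4a2 probe set, U01146_s_at, read 5.11, 4.68 and 5.16 at basal, 5.46, 5.64 and 5.49 at 30 min, and 5.20, 4.84 and 5.08 at 17 h. Its 30 min arrays were also the highest of FRTL5, but the difference of 0.55 ± 0.13 (1.46-fold) did not pass over all probe sets (limma, unadjusted p = 0.000898, adjusted p = 0.207). The difference between the Nr4a2 probe sets was not tested.

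In FRT/TSHR the same 2 probe sets did not pass at either time. L08595_at lay between 3.65 and 4.25 on the 9 arrays, and its highest value was at basal. U01146_s_at read 4.67, 4.54 and 4.47 at basal, 4.93, 4.79 and 4.99 at 30 min, and 4.98, 4.69 and 4.76 at 17 h. Its 30 min arrays lay above all basal arrays, with a difference of 0.34 ± 0.13 (1.27-fold; limma, unadjusted p = 0.0216, adjusted p = 1.00). No other Nr4a probe set had this order in FRT/TSHR, which 5.43% of all probe sets showed.

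Nr4a3, also known as NOR-1, is a close relative of Nr4a1 with overlapping functions in blood cells and muscle. Its probe set X86003_at rose at 30 min in FRTL5, with the smallest SE of the 7. It read 5.93, 6.11 and 6.08 in FRTL5 at basal, 7.42, 7.46 and 7.64 at 30 min, and 6.15, 6.01 and 6.01 at 17 h. The 30 min arrays stood clear of all others, and the SD within each FRTL5 group was at most 0.12. The change was 1.46 ± 0.10, or 2.76-fold with a 95% interval of 2.39 to 3.19, and its adjusted p of 9.90e-07 was the smallest of all 8740 probe sets in this comparison (limma).

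The expressed sequence tag rc_AI176710_at gave scattered values for Nr4a3. Like L08595_at, it was among the 25% of probe sets with the lowest mean over all arrays. Its FRTL5 values were 3.34, 3.39 and 3.46 at basal, 3.80, 4.50 and 4.77 at 30 min, and 4.35, 3.59 and 3.58 at 17 h. The arrays numbered 1 went against the others: at 30 min that array was the lowest, and at 17 h it was the highest and overlapped the 30 min range. The 30 min difference of 0.96 ± 0.22 (1.95-fold) did not pass (limma, adjusted p = 0.138). Without the 3 FRTL5 arrays numbered 1 it was 1.21 with an adjusted p of 0.000331, and without FRTL5 30 min replicate 1 alone it was 1.24 with an adjusted p of 0.00348.

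The third Nr4a3 probe set, rc_AI145834_at, did not pass. It read 4.25, 4.39 and 4.39 at basal, 4.57, 4.45 and 4.54 at 30 min, and 4.53, 4.35 and 4.36 at 17 h in FRTL5, and the 17 h arrays overlapped both other groups. The difference at 30 min was 0.18 ± 0.12 (limma, adjusted p = 1.00), with an interval of the fold of 0.941 to 1.36. The 3 probe sets of Nr4a3 therefore disagree, with rc_AI176710_at among the dim ones. A change as large as that of X86003_at lies outside the interval of rc_AI145834_at.

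None of the Nr4a3 probe sets passed in FRT/TSHR. X86003_at read 6.07, 6.03 and 5.99 at basal, 6.18, 5.93 and 6.22 at 30 min, and 6.02, 5.91 and 6.0 at 17 h, with overlapping groups throughout. Its 30 min difference was 0.08 ± 0.10, with an interval of the fold of 0.915 to 1.22. On rc_AI145834_at and rc_AI176710_at the 9 arrays lay between 4.0 and 4.53 and between 3.37 and 3.76.

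**Figure D1:**
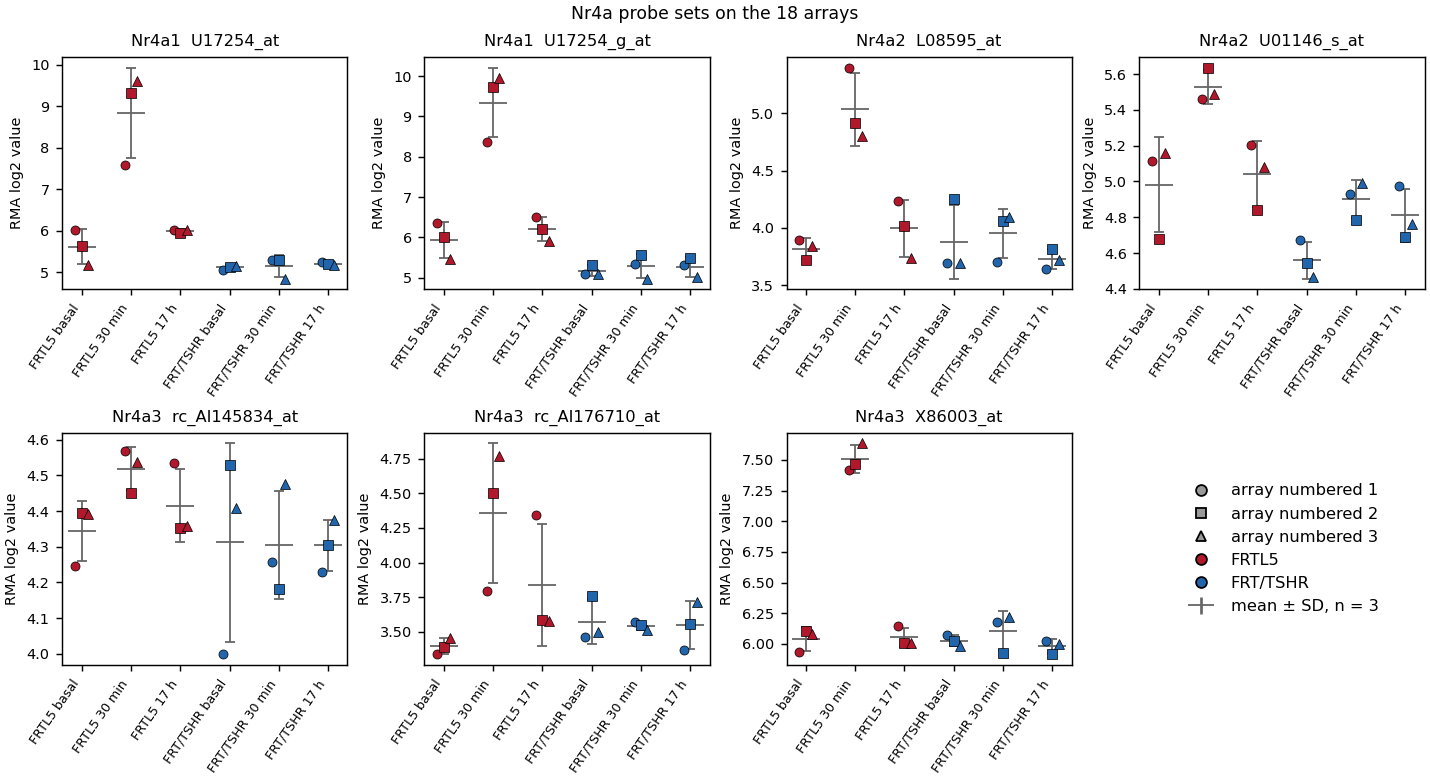
RMA log2 values of the 7 Nr4a probe sets on the 18 arrays, with 1 panel per probe set and its own vertical axis; symbols give the array number, colours the line, and grey bars the mean ± SD of 3 arrays. The FRTL5 30 min arrays of U17254_at, U17254_g_at, L08595_at, U01146_s_at and X86003_at lie above all other FRTL5 arrays, while the FRT/TSHR groups of most probe sets overlap.

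As a family, 4 of the 7 probe sets rose at 30 min in FRTL5. They belong to all 3 genes, Nr4a2 only through the dim L08595_at. The share of all 8740 probe sets called in that comparison was 0.24%, or 21 probe sets, and each of them rose. With the replicate number as a block, 4 Nr4a probe sets and 40 of all probe sets passed. Each of the 7 had all 30 min arrays above all basal arrays, an order that 3.44% of all probe sets showed. The median difference of the 7 was 1.21, against 0.00 over all probe sets. When each gene was taken as the mean log2 value of its probe sets, the differences were 3.32 for Nr4a1, 0.88 for Nr4a2 and 0.87 for Nr4a3 (limma, adjusted p = 0.000121, 0.00228 and 0.00232). With a spread estimated from the 6 compared arrays alone, X86003_at was the only Nr4a probe set that still passed (adjusted p = 0.0308), and those of U17254_at, U17254_g_at and L08595_at rose to 0.254, 0.103 and 0.143.

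At 17 h in FRTL5, 0 of the 7 Nr4a probe sets passed against basal, while 3.56% of all probe sets did. All 7 had a slightly higher mean than at basal, and 0 had an unadjusted p under 0.05 (limma). The differences ran from 0.01 on X86003_at to 0.44 on rc_AI176710_at, where the array numbered 1 was high (adjusted p = 0.441). For Nr4a1 the fold on U17254_at was 1.30, with an interval of 0.767 to 2.20. For X86003_at of Nr4a3 it was 1.01, with the narrow interval of 0.873 to 1.16.

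The fall between the TSH times was tested directly. From 30 min to 17 h, 4 of the 7 fell, against 4.21% of all probe sets called in either direction. Nr4a1 fell by 2.85 on U17254_at (SE 0.36, adjusted p = 0.000356) and by 3.13 on U17254_g_at (SE 0.33, adjusted p = 7.05e-05), which leaves the level 7.20-fold and 8.75-fold lower. Without the 3 FRTL5 arrays numbered 1 these were 11.2-fold and 13.7-fold, and on U17254_at it was 11.1-fold without FRTL5 30 min replicate 1 alone. Nr4a2 fell by 1.04 on L08595_at (SE 0.18, adjusted p = 0.00382) and Nr4a3 by 1.45 on X86003_at (SE 0.10, adjusted p = 5.57e-07; all limma). The 30 min arrays enter both this fall and the rise before it. U01146_s_at had a difference of -0.49 ± 0.13 (limma, adjusted p = 0.053), which passed when the replicate number was kept as a block (adjusted p = 0.0168). rc_AI176710_at had a difference of -0.52 ± 0.22 (adjusted p = 0.287), of -1.06 without the FRTL5 arrays numbered 1 (adjusted p = 0.00071) and of -0.80 without FRTL5 30 min replicate 1 alone (adjusted p = 0.0349).

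In FRT/TSHR, 0 of the 7 Nr4a probe sets passed at 30 min or 17 h against basal, or between these times, and the share over all probe sets was 0% in each comparison. With an unadjusted p under 0.05 there were 208, 108 and 179 probe sets on the whole array (limma), and 1, 0 and 0 of them were Nr4a probe sets. The Nr4a differences ran from -0.03 to 0.34 at 30 min and from -0.15 to 0.25 at 17 h.

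**Figure D2:**
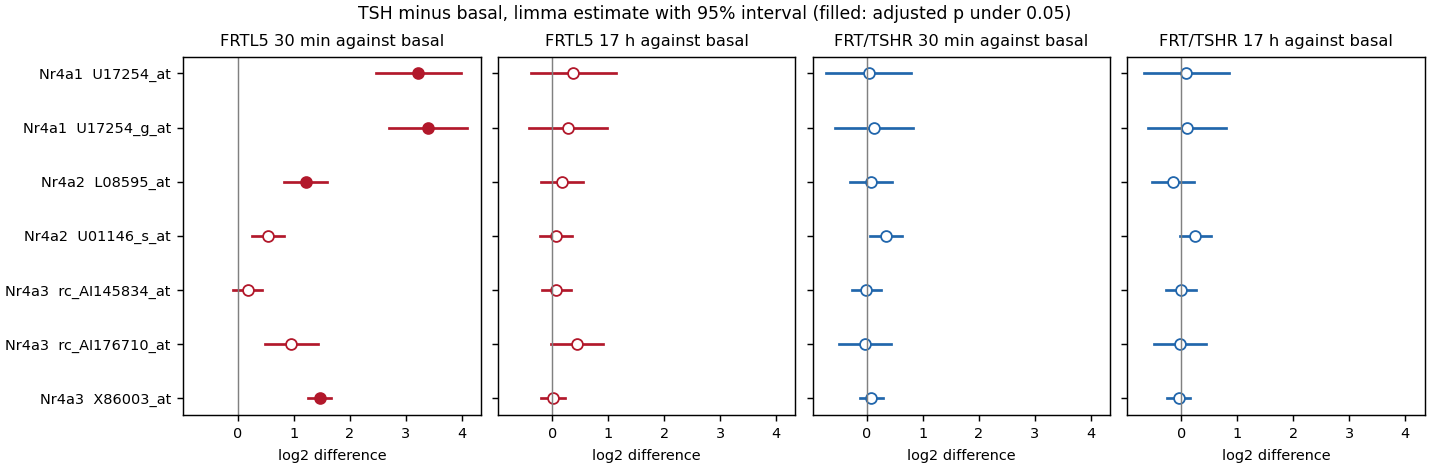
Log2 difference between each TSH time and basal for the 7 Nr4a probe sets in each line (horizontal axis), with 95% intervals from limma; filled points had an adjusted p under 0.05. In FRTL5 at 30 min 4 points are filled, from 1.21 to 3.41, and in the other 3 panels 0 are.

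Whether TSH acted differently on the family in the 2 lines was tested as the difference of the 30 min effects, FRT/TSHR minus FRTL5. It passed for 3 probe sets of 8740 (0.0343%), and in this fit all 3 were Nr4a probe sets. With the replicate block 8 probe sets passed, of which 4 were Nr4a probe sets. The 30 min effect was smaller in FRT/TSHR, where no rise was called: on U17254_at the difference was -3.19 ± 0.51 (9.14-fold, adjusted p = 0.0335). On U17254_g_at it was -3.29 ± 0.46 (9.76-fold, adjusted p = 0.0128), and on X86003_at it was -1.38 ± 0.14 (2.61-fold, adjusted p = 0.000298; all limma). Without the 3 FRTL5 arrays numbered 1 the Nr4a1 differences were -4.02 and -3.99 (16.2-fold and 15.8-fold), and without FRTL5 30 min replicate 1 alone that of U17254_at was -3.82 (14.1-fold). The X86003_at call held in all 20 alternative fits, with adjusted p up to 0.0118. The Nr4a1 calls were less stable when single arrays were left out. That of U17254_at was lost in 10 of 12 such fits, all but those without replicate 1 of FRTL5 at basal or at 30 min, and its adjusted p reached 0.163. That of U17254_g_at was lost in 4 of 12, without FRT/TSHR basal replicate 2, FRT/TSHR 30 min replicate 3, FRTL5 basal replicate 3 or FRTL5 30 min replicate 2, and reached 0.0666. The difference stayed between -3.82 and -2.81 and between -3.78 and -2.98 in those fits.

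For Nr4a2 the difference of effects on L08595_at was -1.14 ± 0.25 and did not pass (limma, adjusted p = 0.392), but it did with the replicate block (adjusted p = 0.0282). On U01146_s_at it was -0.21. The scattered and dim Nr4a3 probe set rc_AI176710_at had -0.99 ± 0.31 (adjusted p = 1.00), and -1.24 without the 3 FRTL5 arrays numbered 1 (adjusted p = 0.00618). At 17 h, 0 of the 7 differed in effect between the lines, against 0.789% of all probe sets.

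Levels were then compared between the lines at each stage. At basal 1 of the 7 differed: the Nr4a2 probe set U01146_s_at was lower in FRT/TSHR by 0.42 (difference -0.42 ± 0.13; limma, adjusted p = 0.0279), where 25.5% of all probe sets differed. This call was lost in 9 of 13 alternative fits. They include those without FRTL5 basal replicate 1 or 3 and without FRT/TSHR basal replicate 2 or 3, and the adjusted p reached 0.127. For Nr4a1 the basal differences of -0.50 and -0.77 did not pass (adjusted p = 0.107 for the second), and for X86003_at the difference was -0.01.

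At 30 min 6 of the 7 were lower in FRT/TSHR, where 22.8% of all probe sets differed. The FRT/TSHR level was 12.9-fold lower on U17254_at (difference -3.69, adjusted p = 8.49e-07) and 16.6-fold lower on U17254_g_at (difference -4.06, adjusted p = 1.09e-07). Without FRTL5 30 min replicate 1 the U17254_at difference was -4.32, a fold over 1.5 times as large. It was 2.12-fold lower for L08595_at, 1.55-fold for U01146_s_at, 1.76-fold for rc_AI176710_at and 2.64-fold for X86003_at. The rc_AI176710_at call was lost without FRTL5 30 min replicate 2 (adjusted p = 0.0513) or replicate 3 (adjusted p = 0.0722).

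At 17 h 0 of the 7 differed between the lines, against 20.4% of all probe sets. The 17 h differences of Nr4a1 were -0.79 (adjusted p = 0.147) and -0.95 (adjusted p = 0.051). Both passed without the 3 FRTL5 arrays numbered 1, at -0.78 and -0.80 (limma, adjusted p = 0.00237 and 0.0101).

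When the 6 groups were ordered by mean level, FRTL5 at 30 min came first for all 7 probe sets. For U17254_at, U17254_g_at, L08595_at, U01146_s_at and X86003_at its arrays did not overlap those of the next group. The gap to that group was 2.85, 3.13, 1.04, 0.49 and 1.40 (log2). Further down, neighbouring groups overlapped in all but 2 cases: FRT/TSHR at 17 h lay above FRT/TSHR at basal for U01146_s_at, and FRT/TSHR at 30 min above FRTL5 at basal for rc_AI176710_at.

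The Nr4a probe sets varied together across arrays, to an extent that differed between probe sets. Over all 18 arrays Pearson's r was 0.992 between the Nr4a1 probe sets, 0.928 between U17254_g_at and X86003_at, 0.883 between L08595_at and X86003_at, and 0.726 between the Nr4a2 probe sets. It was 0.512 between rc_AI145834_at and X86003_at of the same gene. The points share the 6 groups, so these values mostly describe the FRTL5 30 min arrays.

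The genes most similar in pattern were taken for the brightest probe set of each member, as a description over 18 arrays. For Nr4a1 they were Fos, a subunit of the AP-1 factor (r = 0.947), the zinc finger factor Egr1 (0.932), Nr4a3 (0.928), the zinc finger repressor Klf10 (0.924) and the muscle actin Acta1 (0.899). For Nr4a3 they were Nr4a1 (0.928), Id1, whose protein blocks helix-loop-helix factors (0.905), Egr1 (0.902), Nr4a2 (0.883) and Fos (0.883). For Nr4a2, on U01146_s_at, they were the anion exchanger Slc4a1 (0.83), Nr4a1 (0.825), the carbohydrate kinase Fggy (0.819), the copper protein ceruloplasmin, Cp (0.81), and Nr4a3 (0.792). Over the 9 FRTL5 arrays alone 2, 2 and 0 of the 5 genes were among the first 5 again for Nr4a1, Nr4a3 and Nr4a2.

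**Figure D3:**
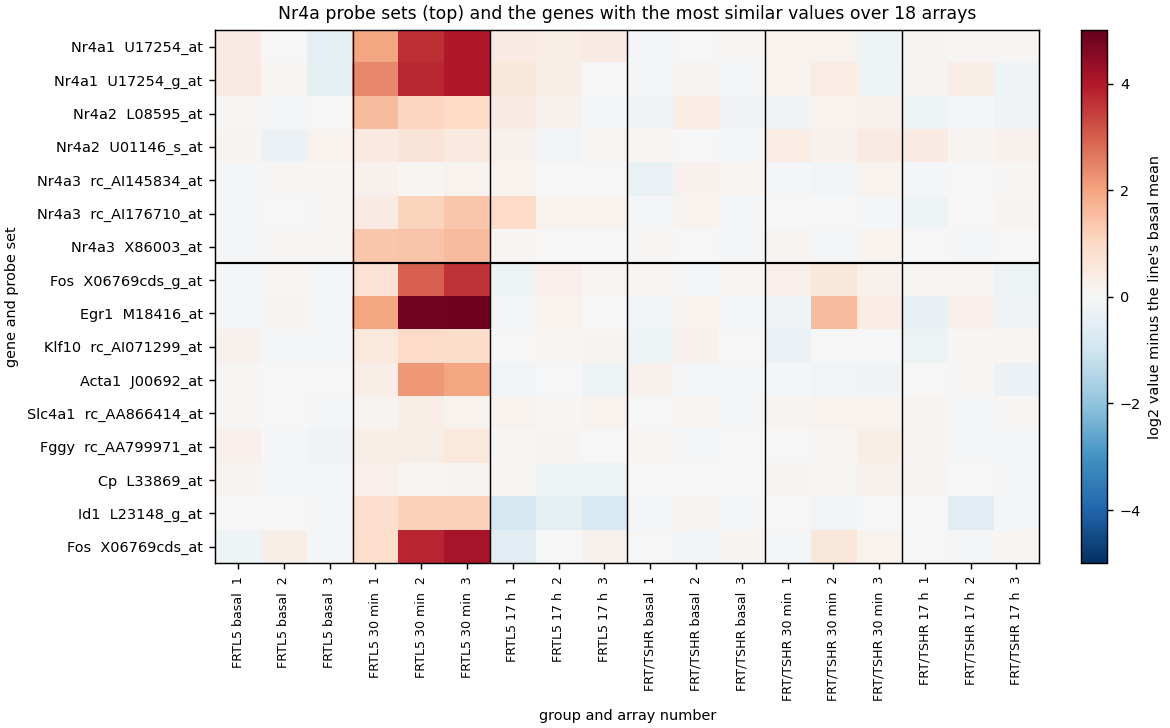
Log2 value minus the basal mean of the same line (colour scale) for the 7 Nr4a probe sets above the line and the genes most similar to them below it, in rows, on the 18 arrays in columns. Colour is concentrated in the FRTL5 30 min columns, where array 1 is paler than arrays 2 and 3 for Nr4a1, Fos, Egr1 and Acta1, and Slc4a1, Fggy and Cp stay pale throughout.

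Other lists of genes were set beside the family at 30 min, each gene by its brightest probe set. Of the other immediate early genes 25 were measured, and 6 rose in FRTL5, against 0.169% of all genes called. They were Egr1 (3.91 ± 0.58), the matricellular gene Ccn1 (2.58 ± 0.45), Fos (2.45 ± 0.46), the MAP kinase phosphatase Dusp1 (2.08 ± 0.25), Myc (1.39 ± 0.24) and Id1 (1.07 ± 0.15). Their SD over the FRTL5 30 min arrays ran from 0.19 for Id1 to 1.52 for Fos. Fits without the FRTL5 arrays numbered 1 are not given for these genes. Counted by any probe set, 9 of the 25 had a call, Junb, Klf10 and Zfp36 through a probe set other than the one that stood for them. All genes were not counted in that way, so this count has no share beside it. The median of the 25 was 0.63, beside 1.21 for the 7 Nr4a probe sets and 0.00 over all genes. By the rule of the lists, the brightest probe sets of Nr4a1, Nr4a2 and Nr4a3 had differences of 3.41, 0.55 and 1.46. That of Nr4a2 did not pass. In FRT/TSHR at 30 min 0 of the 25 passed, and 0% of all genes did. Of the 25, 21 had a higher mean than at basal, a larger share than the 58.1% of all probe sets. That 58.1% counts every probe set, not 1 per gene. The median of the 25 was 0.22 there, while that of the Nr4a probe sets was 0.07 and that over all genes 0.03. At 17 h in FRTL5 1 of the 25 passed against basal, Id1, which fell by 0.68 (SE 0.15; adjusted p = 0.017), which is 4% of the list against 4.12% of all genes called. From 30 min to 17 h in FRTL5, 11 of the 25 fell, which is 44% against 4.77% of all genes called. Their median difference was -0.99, so the fall was shared with the Nr4a probe sets. Egr1 in FRT/TSHR at 30 min had a difference of 1.47 ± 0.58 (limma, unadjusted p = 0.0235, adjusted p = 1.00). For the difference of the 30 min effects, FRT/TSHR minus FRTL5, 0 of the 25 passed, against 0.0422% of all genes. It was below 0 for 19 of the 25 and above 0 for 6, with a median of -0.68 against 0.01 over all genes. A smaller effect in FRT/TSHR was therefore not particular to the Nr4a probe sets in direction.

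Nuclear receptors outside the subfamily were tested beside it. Of 32 measured, 0 passed at 30 min in FRTL5, where 0.169% of all genes did, 16 had a higher and 16 a lower mean, and the median was 0.00. The largest differences were 0.61 ± 0.14 for Nr1d1, the clock repressor REV-ERB alpha (limma, adjusted p = 0.152), and 0.31 ± 0.24 for the retinoic acid receptor Rara (adjusted p = 1.00). At 17 h 0 of the 32 passed against basal, where 4.12% of all genes did, and Nr1d2, the REV-ERB beta gene, had the largest difference of -0.90 ± 0.26 (adjusted p = 0.0725). From 30 min to 17 h in FRTL5, 1 of the 32 fell, which is 3.12% against 4.77% of all genes called.

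Partners, inputs and targets of the family were measured in part. Of 9 partners and coregulators, 16 genes of the cAMP and calcium route and 19 genes described elsewhere as NR4A targets, 0 passed at 30 min in FRTL5. Only 0.169% of all genes passed there, so 0 calls in lists of this size are near that share. The lists had medians of 0.00, -0.02 and 0.02. In the cAMP route Pde4b, a cAMP phosphodiesterase, had 0.27 and Prkaca, a catalytic subunit of protein kinase A, had -0.33. At 17 h in FRTL5, 1 of the 19 described targets passed: the receptor tyrosine kinase gene Ret fell by 0.36 (SE 0.09; limma, adjusted p = 0.0472), against 4.12% of all genes called. Of the partners and the cAMP route 0 passed at 17 h, while 1 of the 9 and 3 of the 16 had another probe set that did. The share of all genes with any probe set called was not measured, and the 4.12% counts 1 probe set per gene. In FRT/TSHR 0 genes of these lists passed at either time, and 0% of all genes did.

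**Figure D4:**
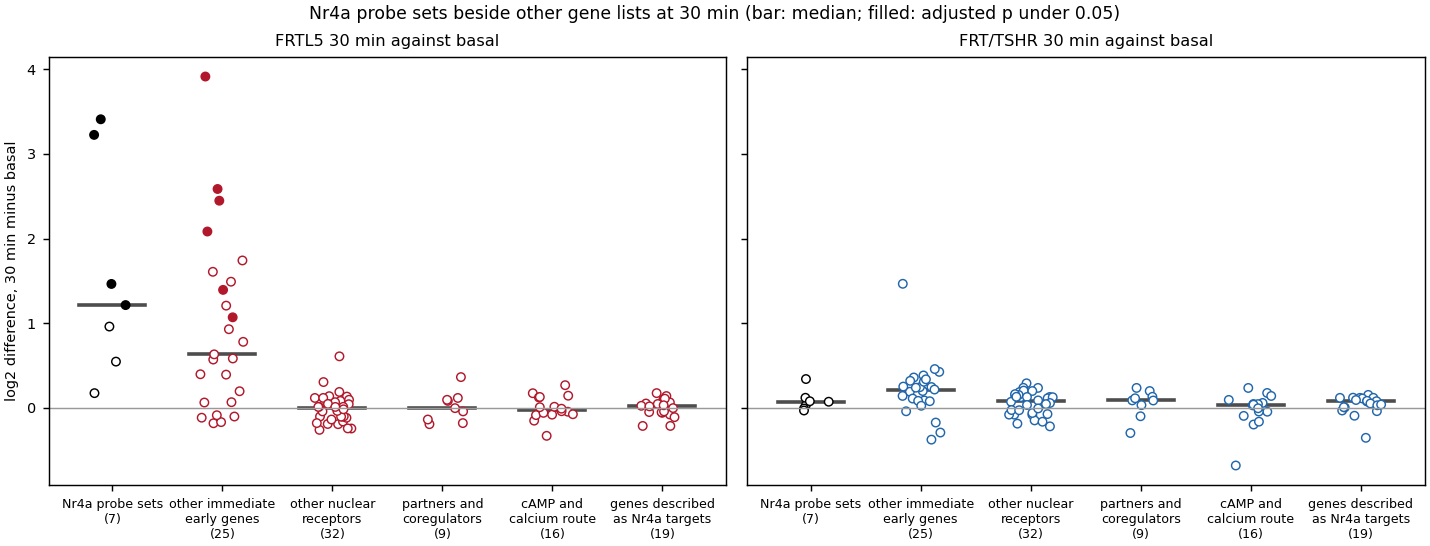
Log2 difference between 30 min of TSH and basal (vertical axis) for the 7 Nr4a probe sets and for 5 lists of genes, 1 point per probe set or gene with the number in brackets, FRTL5 on the left and FRT/TSHR on the right; bars are medians and filled points had an adjusted p under 0.05. In FRTL5 the medians are 1.21 for the Nr4a probe sets and 0.63 for the other immediate early genes, and those of the other lists lie near 0.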

How the data were processed

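Expression values came from 1 deposited table of 8799 probe sets on 18 arrays. The authors made its log2 values with RMA, per the submitters' processing notes (version not given in the sources used here), and scanner files were not analysed here. Detection above background was therefore not measured. The 59 control probe sets were left out and 8740 tested with no filter. In the annotation 7006 probe sets had 1 symbol, 308 had several and 1426 had none. Gene numbers of 6985 matched the GRCr8 gene table, and 0 symbols changed. The table names no genome build.

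Means of the 6 groups were estimated jointly over the 18 arrays in limma 3.58.1 under R 4.3.3 (lmFit, eBayes, 12 residual and 3.597 prior degrees of freedom). It gave 11 comparisons, with two-sided tests and Benjamini-Hochberg adjustment over the 8740 probe sets within each, and a threshold of 0.05. The script was tested on simulated data. The labels call the arrays biological replicates and do not say what separates them. The p-values therefore set group differences against the spread between these samples within groups, pooled over the 6 groups.

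Replicate numbers come from the labels. Within a line, same-numbered arrays of different groups had deviations with r of 0.148 to 0.798 in FRTL5 and 0.158 to 0.619 in FRT/TSHR (9 pairs each). Pairs with different numbers had r of -0.639 to 0.628 in FRTL5 and -0.41 to -0.03 in FRT/TSHR. These ranges are apart in FRT/TSHR but overlap in FRTL5, where the numbers are not shown to pair all samples. Blocked values are given where they change a call. All Nr4a probe sets are named. From the gene lists up to 6 called genes by smallest p are named per comparison, or else those with the largest difference, and per member the 5 genes of highest correlation. The members and lists were chosen with earlier results of these data known.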

Additional observations from a re-analysis of the deposited data

Results flagged for a closer look

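The 30 min effect of TSH differed between the lines for 3 Nr4a probe sets by the test of the difference itself (FRT/TSHR effect minus FRTL5 effect, limma over 8740 probe sets). For Nr4a1 the difference was -3.193 on U17254_at (adjusted p = 0.0335) and -3.287 on U17254_g_at (adjusted p = 0.0128). For Nr4a3 it was -1.385 on X86003_at (adjusted p = 0.000298). The call was lost in 11 of 20 alternative fits for U17254_at, in 5 of 20 for U17254_g_at and in 0 of 20 for X86003_at. In FRTL5 all 3 arrays at 30 min were above all 3 basal arrays on each of these probe sets. Line, medium and TSH dose cannot be told apart in this difference.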

How the results depend on the processing

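The replicate block changed 2 Nr4a calls: U01146_s_at between 30 min and 17 h in FRTL5, and L08595_at for the difference of effects at 30 min. It could not be fitted for levels between lines, since the numbers lie within a line. Counts of Nr4a calls kept to within 1.5 times of their reported value under the alternatives run, except as follows. With only the compared arrays in the fit, the FRTL5 count at 30 min went from 4 to 1, the count for the difference of effects at 30 min from 3 to 1, and the count between lines at 17 h from 0 to 2. The basal count between lines went from 1 to 0 without the 3 FRTL5 or all 6 arrays numbered 1, with quantile normalization and with median centring, and ranged from 0 to 1 over fits without 1 array. At basal with only the compared arrays it was 1 again, but the probe set was U17254_g_at (adjusted p = 0.0384). The 17 h count between lines was 2 without the 3 FRTL5 or all 6 arrays numbered 1, and 1 without the 25% dimmest probe sets or with a trended, robust variance prior. The count for the difference of effects at 30 min ranged from 1 to 3 over fits without 1 array. In the fit without dim probe sets 3 Nr4a probe sets passed at 30 min in FRTL5, since L08595_at was not tested there. The dim rc_AI176710_at was not tested in that fit either. No called Nr4a difference changed sign, whereas 54 of 841 alternative values of uncalled ones did. Counts over all probe sets moved more, from 21 to between 2 and 52 for FRTL5 at 30 min, from 311 to between 96 and 867 at 17 h, from 368 to between 145 and 916 for 17 h against 30 min, and from 3 to between 1 and 25 and from 69 to between 22 and 365 for the differences of effects at 30 min and 17 h. The cause of these changes was not tested. Only 3 arrays per group limit the precision, and signal over background was not measured.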
